A study of Mus musculus with 16 samples.

Results

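The genes described here encode the eukaryotic translation initiation factors (eIFs) and the proteins that share their names, measured in BU.MPT cells, a mouse proximal tubular cell line. They were chosen by name, as every probe set whose platform gene symbol begins with Eif followed by a number from 1 to 6, with 1 probe set per gene. The rule found 48 genes among the 19505 genes that had a probe set, and 0 of the 48 had more than 1. They comprise 4 genes of the eIF1 and eIF1A group, 5 of the eIF2 group, 4 eIF2 kinases, 5 eIF2B subunits, 12 genes of eIF3, 14 of the eIF4 group and 4 of the eIF5 and eIF6 group. Eif1, Eif2s1, Eif3g, Eif3j1, Eif4a2, Eif4ebp3, Eif4g1 and Eif5 were not analysed here.

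Total RNA of 16 cell samples, 4 in each of 4 groups, was hybridised to 1 array each. All cells were grown to near confluence at 39 °C without interferon gamma. Control cells were kept at 21% oxygen in medium with 4.5 g/L glucose and 10% serum. Cells of the H/R group (hypoxia/reperfusion) spent 3 h at about 1% oxygen in medium lacking glucose and serum and were then returned to normal culture for 1 h. Cyanocobalamin (vitamin B12) at 0.3 µM was added to the same treatments in control+B12 and in H/R+B12. Sample titles read B12 throughout, while some descriptions number it B13 to B15, and all were taken as B12. Low oxygen, lack of glucose and lack of serum came together and cannot be told apart. The samples come from 1 immortalised line, and no label says that the replicates came from different cultures. The p-values therefore measure only the spread between these samples, which may be technical.

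Initiation factors bring the ribosome, the initiator methionyl-tRNA and the mRNA together at the start codon. The trimer eIF2 carries the tRNA as a GTP complex and is recharged by eIF2B. The eIF3 complex is the scaffold on the small ribosomal subunit, eIF1 and eIF1A govern scanning, and the eIF4 proteins bind the mRNA cap and unwind the leader. Stress lowers initiation by known routes: eIF2 kinases phosphorylate the alpha subunit of eIF2, which then blocks eIF2B, and the eIF4E-binding proteins hold the cap-binding protein eIF4E when the kinase complex mTORC1 is inactive. These controls act on proteins, and the arrays measured RNA alone.

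The values are log2 signals that the authors computed by RMA (robust multi-array averaging), and a difference of 1 is 2-fold. A probe set's signal is compared between groups and never with another probe set's. Array medians lay between 5.21 and 5.37, and the medians of the negative control features between 5.72 and 6.23, so a signal near or below 6.23 is not separable from background. Eif2s3y, Eif4a3l1 and Eif4e1b had group means below that level in all 4 groups. The group means of Eif2b4 were 5.75 to 6.27 and those of Eif4e3 were 6.05 to 6.69. The size of the differences of these genes is uncertain. Of the proximal tubule markers 3 of 16 measured (Aqp1, Mme and Pax8) were above it in control, and the endocytic receptors Lrp2 and Cubn were not. Of the general epithelial markers 4 of 6 (Krt8, Krt18, Cldn1 and Tjp1) were above it in control. Cdh1 (control mean 6.10) and Epcam (3.17) were not. Scnn1a of the distal nephron (1 of 8) and Col1a1 of fibroblasts (1 of 6) were also above it, while 0 of 5 endothelial and 0 of 4 leukocyte markers were. The log2 of the summed signal of the epithelial list was 15.66 to 15.89 in control and 16.51 to 16.87 after H/R, and 15.65 to 15.89 in control+B12 and 16.68 to 16.76 in H/R+B12. That of the proximal tubule list was 17.24 to 17.44 in control and 17.00 to 17.12 after H/R, and 17.30 to 17.45 in control+B12 and 16.97 to 17.06 in H/R+B12. The distal nephron list was at 7.94 to 8.73 in control and 7.17 to 7.73 after H/R, but overlapped with B12, at 7.82 to 8.29 in control+B12 and 7.37 to 8.25 in H/R+B12. Each sum is set mostly by the probe sets with the highest signal. In the epithelial list that was Cldn1, with means of 15.47 in control and 16.48 after H/R. In the proximal tubule list Mme (16.30 and 15.78) and Aqp1 (14.21 and 13.42) were lower after H/R, but Pax8 (15.91 and 16.08) was not. In the distal nephron list Scnn1a (7.83 and 6.68) alone was above background. The sums therefore do not describe whole lists. The part of these shifts in the results was not tested. In bulk samples, fewer cells of a type and less RNA per cell cannot be told apart.

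Promoters are shown for Eif1b, Eif2s2, Eif3a, Eif3c and Eif4a1, the 5 of the 8 genes higher after H/R in both B12 states for which a promoter is printed here, because these genes moved together. The sequences are from RefSeq (build GRCm38.p6), run from 250 bases before to 50 bases after the annotated start, and read 5′ to 3′ on the gene's strand. Capitals mark matches to 4 short motifs searched on both strands: the E-box CACGTG, bound by Myc and related factors, the hypoxia response element core ACGTG, which every E-box also contains, the C/EBP-ATF response element core TGATGNAA, and the paired heat shock element GAANNTTC. The Eif3c promoter has no capitals because it held 0 matches.
Eif1b, chr9:120492356-120492655, plus strand: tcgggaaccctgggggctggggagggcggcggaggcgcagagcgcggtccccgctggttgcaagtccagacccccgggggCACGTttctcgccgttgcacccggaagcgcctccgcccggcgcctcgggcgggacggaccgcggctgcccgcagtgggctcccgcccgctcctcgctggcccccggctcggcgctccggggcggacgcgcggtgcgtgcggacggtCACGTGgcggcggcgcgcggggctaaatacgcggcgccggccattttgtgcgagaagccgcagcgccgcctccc
Eif2s2, chr2:154892857-154893156, minus strand: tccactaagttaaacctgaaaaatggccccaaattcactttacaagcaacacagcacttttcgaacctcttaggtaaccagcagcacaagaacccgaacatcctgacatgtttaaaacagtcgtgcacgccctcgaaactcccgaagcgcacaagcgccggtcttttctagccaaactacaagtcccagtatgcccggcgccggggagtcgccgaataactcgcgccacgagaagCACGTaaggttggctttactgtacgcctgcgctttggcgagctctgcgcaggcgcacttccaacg
Eif3a, chr19:60790644-60790943, minus strand: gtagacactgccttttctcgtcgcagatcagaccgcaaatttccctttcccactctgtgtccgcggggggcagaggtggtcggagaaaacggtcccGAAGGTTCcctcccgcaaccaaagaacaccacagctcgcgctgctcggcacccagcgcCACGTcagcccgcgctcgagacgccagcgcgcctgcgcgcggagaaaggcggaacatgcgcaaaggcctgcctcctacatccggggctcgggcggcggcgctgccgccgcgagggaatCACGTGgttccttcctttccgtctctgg
Eif3c, chr7:126566317-126566616, minus strand: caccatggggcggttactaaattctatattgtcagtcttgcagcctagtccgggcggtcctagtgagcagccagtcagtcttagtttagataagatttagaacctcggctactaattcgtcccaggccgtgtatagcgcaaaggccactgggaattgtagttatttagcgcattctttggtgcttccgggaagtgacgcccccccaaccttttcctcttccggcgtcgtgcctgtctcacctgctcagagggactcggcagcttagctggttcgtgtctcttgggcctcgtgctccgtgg
Eif4a1, chr11:69672374-69672673, minus strand: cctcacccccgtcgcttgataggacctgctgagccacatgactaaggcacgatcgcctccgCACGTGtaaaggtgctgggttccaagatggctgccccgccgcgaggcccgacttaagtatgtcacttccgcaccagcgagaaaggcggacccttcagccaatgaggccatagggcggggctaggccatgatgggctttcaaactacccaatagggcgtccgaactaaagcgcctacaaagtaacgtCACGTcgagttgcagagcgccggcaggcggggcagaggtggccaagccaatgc

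RefSeq gave 50 promoters for 37 of the 48 genes. Some genes have several promoters that overlap, so the same site can be counted more than once, as an E-box of Eif5a was. The E-box was present in 11 of these 50 promoters (22%), against 7.15% of all 32851 promoters and 10.8% of the 9690 promoters with at least 60% GC. The genes were Eif1b, Eif3a, Eif3f, Eif3k, Eif4a1, Eif4e, Eif4h, Eif5a and Eif5a2, which include genes that rose, a gene that fell and genes that passed in neither direction. Among the 5 genes with a promoter that rose after H/R without B12, 3 had an E-box, as did 6 of the other 32. The core ACGTG was in 17 of the 50 (34%, against 19.6% of all and 26.5% of GC-rich promoters). The C/EBP-ATF core was in 1 of the 50 (2%), that of Eif2s3x, against 3.97% of all and 1.1% of GC-rich promoters. Eif4ebp1 was not among the 37 genes with a promoter. The paired heat shock element was in 6 (12%, against 7.86% of all and 3.83% of GC-rich promoters). Median GC content was 61.7% in these promoters and 52.7% in all. A match describes letters in this window, not a bound site.

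H/R raised a minority of the initiation factor genes, each by a moderate amount, and the repressor Eif4ebp1 by the most. Without B12, 8 of the 48 genes rose (Eif4ebp1, Eif1a, Eif1b, Eif3c, Eif3a, Eif2s2, Eif6 and Eif4a1) and 3 fell (Eif2ak2, Eif3l and Eif5a) at an adjusted p under 0.05 in limma. Over all 22206 probe sets 17.6% passed, 8.11% higher and 9.54% lower. Many probe sets of the array were at background, and among the 10546 above the negative controls in at least 1 group 34.9% passed, 16% higher and 18.9% lower. By that measure the 8 rises among 45 such factor genes (17.8%) were near the background share, and the 3 falls were fewer. The median difference of the 48 genes was 0.13, against -0.02 for all probe sets, and 3 genes (Eif4ebp1, Eif1a and Eif1b) changed at least 2-fold. With each array centred on its median, 9 factor genes rose and 0 fell, and over all probe sets the share of calls that were higher went from 46% to 56.4%.

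With B12 in both arms, in 8 other arrays, 17 of the 48 genes rose and 2 fell (Eif2d and Eif4ebp2). All 8 genes that rose without B12 were among the 17, and the others were Eif2a, Eif2ak3, Eif2b2, Eif2b3, Eif3d, Eif3e, Eif3j2, Eif4a3 and Eif4e. The share of all probe sets that passed was 18.7%, with 9.04% higher and 9.61% lower, and among those above the negative controls 35.9%, 17.7% higher and 18.2% lower. Here 37.8% of the 45 factor genes above background rose, and the median difference was 0.27 against -0.04 for all probe sets. After centring on array medians 18 rose and 1 fell, and the share of higher calls over all probe sets went from 48.5% to 60.1%. The 4 H/R arrays lay beyond the 4 control arrays in 17 of the 48 genes without B12 (20.9% of all probe sets) and in 20 with B12 (21.5%). These shares include probe sets at background. The share among probe sets above the negative controls was not computed for this measure, so an excess in the factor genes is not shown.

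**Figure D1:**
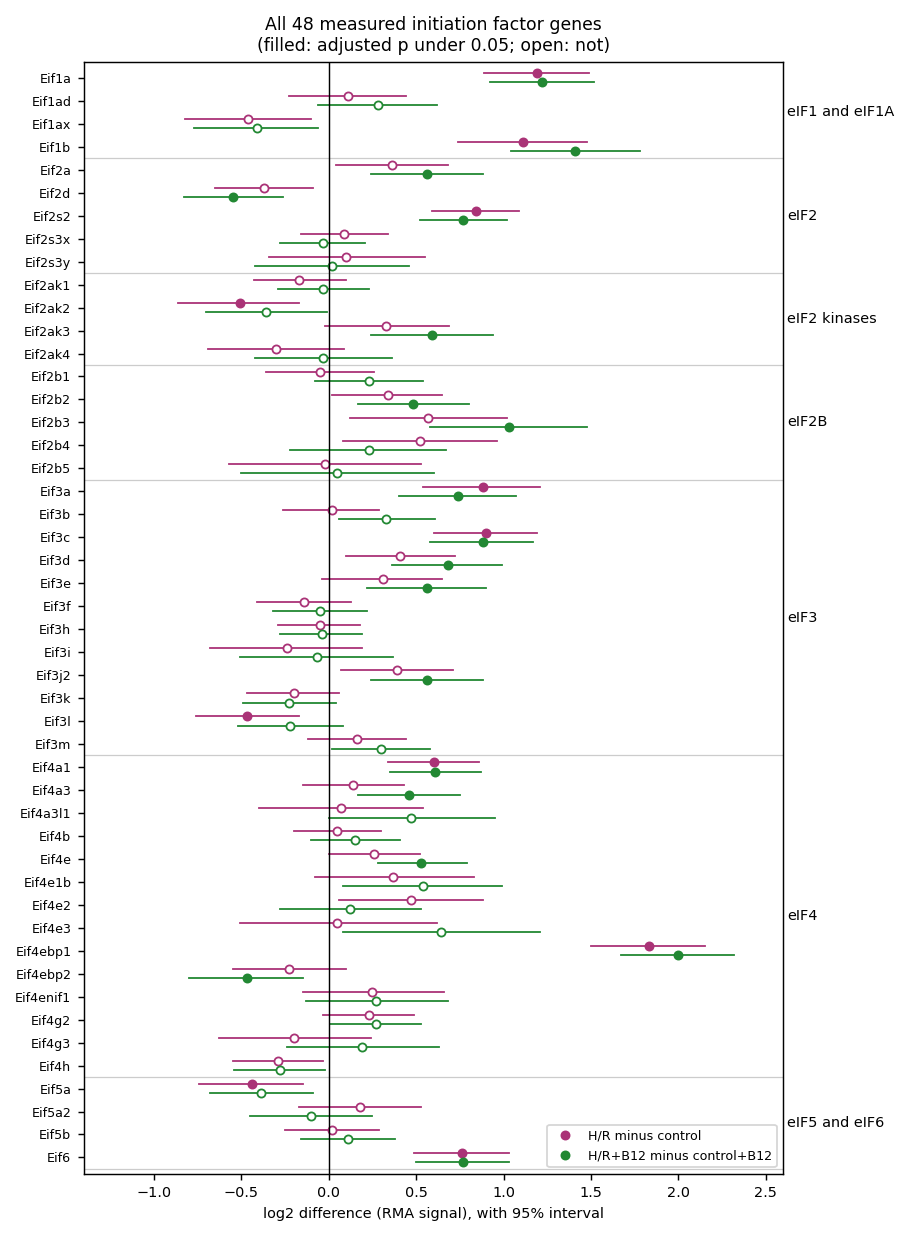
Log2 difference of RMA signal (x axis) for each of the 48 genes (y axis, by factor group), H/R minus control in purple and H/R+B12 minus control+B12 in green, with 95% intervals of the limma fit (n = 4 against 4). Filled points passed an adjusted p of 0.05, as 11 genes did without B12 and 19 with it, and Eif4ebp1 lies farthest to the right at 1.83 and 2.00.

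Among the scanning factors, Eif1a and Eif1b rose and their relatives did not. Eif1a encodes a form of eIF1A, which keeps the small subunit open on the mRNA. Its signal was 13.07, 12.69, 12.53 and 12.76 in the 4 control arrays and 14.10, 14.18, 13.75 and 13.80 in the 4 H/R arrays. With B12 it was 12.86, 12.63, 12.71 and 12.65 in control+B12 and 13.84, 13.92, 14.01 and 13.96 in H/R+B12. All H/R arrays were above all their controls in both settings, by 1.19 ± 0.14 (SE, n = 4 against 4, adjusted p = 2.06e-05) without B12 and 1.22 ± 0.14 (adjusted p = 1.71e-05) with it. The X-linked copy Eif1ax was at -0.46 ± 0.17 and -0.41 ± 0.17 and did not pass (adjusted p = 0.0752 and 0.107), with all 4 H/R arrays below all 4 control arrays without B12 but overlapping with it. The within-array log2 ratio of Eif1a to Eif1ax was higher after H/R by 1.65 without and 1.63 with B12, and by at least 0.95 between any H/R array and any control array. These genes are close in sequence, and signal that their probes share cannot be told apart here.

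Eif1b encodes a paralogue of the start codon selector eIF1. It read 8.77, 9.51, 8.90 and 9.41 in control and 10.22, 10.10, 10.28 and 10.41 after H/R. With B12 the values were 9.29, 9.26, 9.06 and 9.22 in control+B12 and 10.47, 10.34, 10.86 and 10.79 in H/R+B12. The groups did not overlap in either setting, and the differences were 1.11 ± 0.17 (adjusted p = 0.00027) and 1.41 ± 0.17 (adjusted p = 2.86e-05). Eif1ad, an eIF1A-like protein, was at 0.11 ± 0.16 and 0.28 ± 0.16 and passed in neither.

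In the eIF2 group the beta subunit gene rose and the X-linked gamma subunit gene did not. Eif2s2, which encodes the beta subunit, read 15.89, 15.89, 15.65 and 15.80 in control and 16.80, 16.60, 16.54 and 16.65 after H/R. In the B12 arms it read 15.85, 15.86, 15.75 and 15.63 in control+B12 and 16.44, 16.55, 16.58 and 16.60 in H/R+B12. Every H/R array was higher than every control array, with differences of 0.84 ± 0.12 (adjusted p = 8.91e-05) and 0.77 ± 0.12 (adjusted p = 0.000193). The gamma subunit gene Eif2s3x was at 0.09 ± 0.12 and -0.03 ± 0.12 (adjusted p = 0.705 and 0.898), with overlapping arrays, and the ratio of Eif2s2 to Eif2s3x was higher by 0.75 and 0.80. The Y-linked copy Eif2s3y stayed between 2.15 and 3.20 in all 16 arrays, below the negative controls.

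Eif2a and Eif2d, which can bring initiator tRNA to the ribosome outside the eIF2 trimer, had opposite signs in both settings. They were called where B12 was present, and their interactions of H/R and B12 (0.20 and -0.18) were not called. Eif2a read 13.28, 13.09, 12.75 and 13.24 in control+B12 and 13.71, 13.63, 13.79 and 13.46 in H/R+B12, without overlap, and rose by 0.56 ± 0.15 (adjusted p = 0.0149). Without B12 it read 13.42, 13.19, 13.30 and 13.11 in control and 13.53, 13.85, 13.69 and 13.38 after H/R, which overlap, at 0.36 ± 0.15 (adjusted p = 0.123). The rise with B12 was not called without control+B12 replicate 3 (adjusted p = 0.055). Eif2d read 12.07, 11.85, 12.14 and 12.03 in control+B12 and 11.44, 11.70, 11.27 and 11.50 in H/R+B12, a difference of -0.55 ± 0.13 (adjusted p = 0.00762). In the arms without B12 it read 12.16, 12.08, 11.89 and 12.01 in control and 11.73, 11.60, 11.84 and 11.49 after H/R, a difference of -0.37 ± 0.13 that missed the threshold (adjusted p = 0.0704) although those arrays did not overlap.

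**Figure D2:**
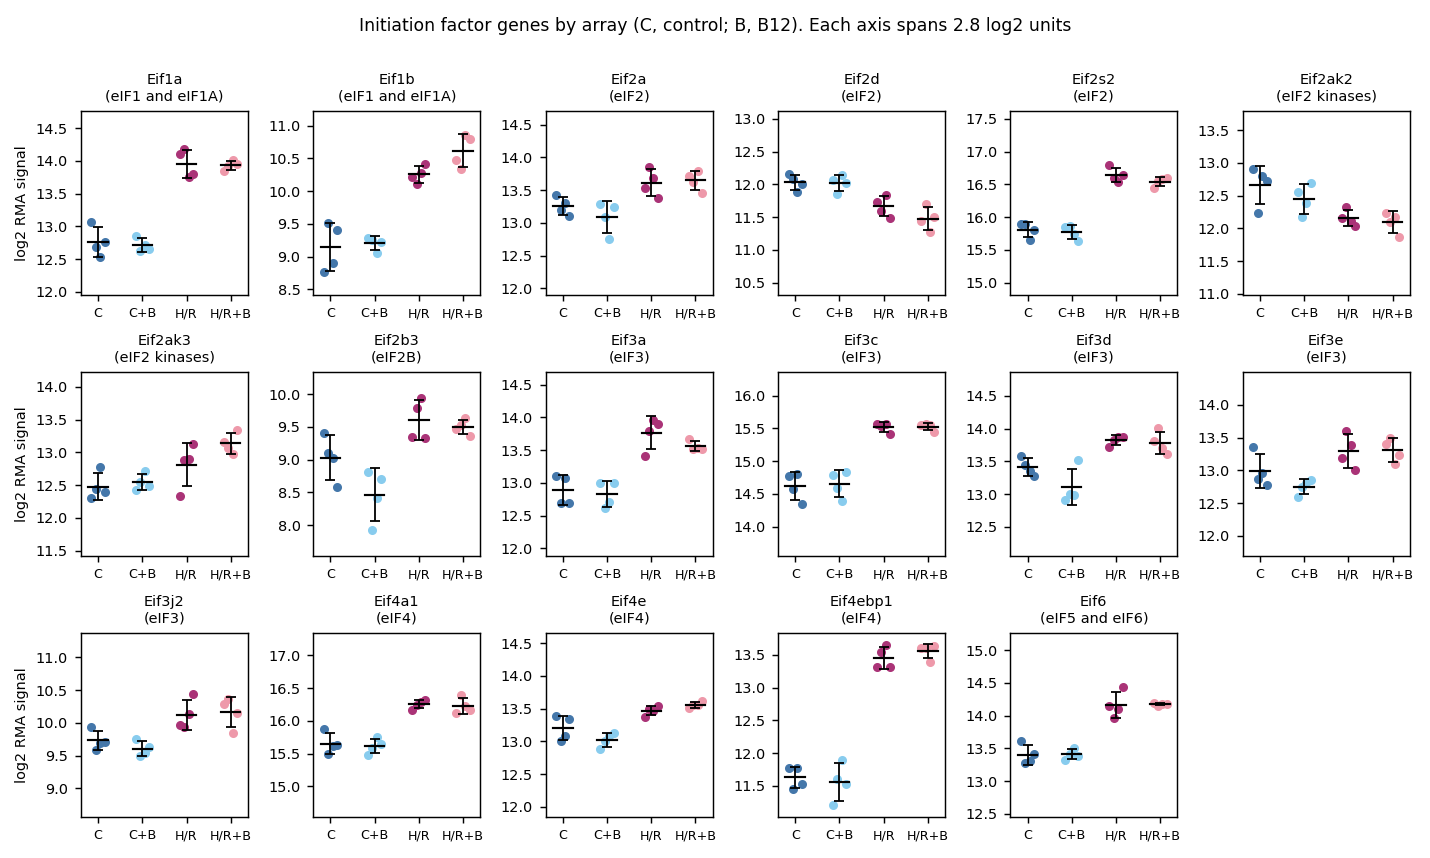
Log2 RMA signal (y axis, 2.8 units in each panel) of the 17 genes that passed in at least 1 H/R comparison with a difference of 0.5 or more, in the 4 groups (x axis). Points are arrays, and bars are the mean ± SD of 4. Eif4ebp1, Eif1a, Eif1b, Eif2s2, Eif3a, Eif3c, Eif4a1 and Eif6 separate fully by H/R in both B12 states, while Eif2ak2 overlaps.

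The 4 eIF2 kinases sense different stresses, and no kinase gene was called in both H/R comparisons. Of all 22206 probe sets 2943 were. Eif2ak3 encodes PERK, the kinase of endoplasmic reticulum stress. It read 12.43, 12.55, 12.71 and 12.49 in control+B12 and 13.16, 13.06, 12.98 and 13.34 in H/R+B12, all higher, and rose by 0.59 ± 0.17 (adjusted p = 0.0191). Without B12 it read 12.30, 12.44, 12.78 and 12.39 in control and 12.34, 12.89, 12.90 and 13.12 after H/R, where replicate 1 lay among the controls, and was at 0.33 ± 0.17 (adjusted p = 0.212). Without H/R replicate 1 that comparison passed (0.49, adjusted p = 0.0412). The call with B12 was lost without H/R+B12 replicate 4 or control+B12 replicate 1 (highest adjusted p 0.0611).

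Eif2ak2 encodes PKR, which responds to double-stranded RNA. It read 12.90, 12.24, 12.80 and 12.72 in control and 12.16, 12.33, 12.11 and 12.03 after H/R, lower except that control replicate 2 lay below the highest H/R array. The difference was -0.51 ± 0.16 (adjusted p = 0.0384), and 9 of 23 alternative settings (those without a 2-fold rule) did not call it. These were the centring on medians and the leaving out of H/R replicate 1, 3 or 4 or control replicate 1, 3 or 4 (highest adjusted p with an array left out 0.11), the replicate block and the fit of only these groups. With B12 the arrays read 12.55, 12.17, 12.39 and 12.70 in control+B12 and 12.24, 12.10, 12.18 and 11.87 in H/R+B12 and also overlapped, at -0.36 ± 0.16 (adjusted p = 0.155). The heme-regulated kinase gene Eif2ak1 was at -0.17 ± 0.12 and -0.03 ± 0.12, and Eif2ak4, which encodes the amino acid sensor GCN2, at -0.30 ± 0.18 and -0.03 ± 0.18. Neither passed, and their arrays overlapped.

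Of the 5 subunits of the exchange factor eIF2B, 0 passed without B12 and 2 rose with it. Over all probe sets 17.6% passed without B12 and 18.7% with it, and 34.9% and 35.9% of those above the negative controls. Eif2b3, the gamma subunit of its catalytic part, read 8.81, 7.92, 8.42 and 8.71 in control+B12 and 9.47, 9.53, 9.63 and 9.36 in H/R+B12, without overlap, and rose by 1.03 ± 0.21 (adjusted p = 0.00235). Without B12 it read 9.41, 9.10, 9.02 and 8.58 in control and 9.35, 9.78, 9.94 and 9.33 after H/R, which overlap, at 0.57 ± 0.21 (adjusted p = 0.0801). The control+B12 arrays of Eif2b3 reached lower than the control arrays, and the B12 difference in control was -0.56 (unadjusted p = 0.0176 in limma, adjusted p = 0.823). Eif2b2, of the regulatory part, did not overlap in either setting, at 0.34 ± 0.15 (adjusted p = 0.147) and 0.48 ± 0.15 (adjusted p = 0.0298), and 7 of 23 settings did not call the latter, among them those without control+B12 replicate 1 or 3 or H/R+B12 replicate 1, 2 or 3 (highest adjusted p 0.101). Without control replicate 1 the difference of Eif2b3 in the arms without B12 passed (0.70, adjusted p = 0.0425). Eif2b1, Eif2b4 and Eif2b5 were between -0.05 and 0.52 and passed in neither. Eif2b4, at background, passed without H/R replicate 1 (0.70, adjusted p = 0.0239).

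Of 12 genes of the eIF3 complex, Eif3a and Eif3c rose in both settings and most others did not. Eif3a encodes the largest core subunit. It read 13.11, 12.69, 13.07 and 12.69 in control and 13.41, 13.79, 13.96 and 13.90 after H/R, and 13.00, 12.61, 12.70 and 12.99 in control+B12 and 13.67, 13.52, 13.53 and 13.51 in H/R+B12. Eif3c, a core partner of Eif3a, read 14.77, 14.57, 14.81 and 14.34 in control and 15.57, 15.53, 15.56 and 15.41 after H/R. In the B12 arms its values were 14.79, 14.59, 14.39 and 14.84 in control+B12 and 15.55, 15.57, 15.55 and 15.44 in H/R+B12. In both genes every H/R array exceeded every control array. The differences were 0.88 ± 0.16 and 0.74 ± 0.16 for Eif3a (adjusted p = 0.000777 and 0.00303) and 0.90 ± 0.14 and 0.88 ± 0.14 for Eif3c (adjusted p = 0.000206 and 0.000253).

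Eif3d, Eif3e and Eif3j2 passed where B12 was present. Eif3d, a peripheral subunit with a cap-binding fold, read 12.91, 13.01, 12.99 and 13.52 in control+B12 and 13.81, 14.01, 13.71 and 13.61 in H/R+B12, and 13.59, 13.45, 13.35 and 13.28 in control and 13.72, 13.83, 13.88 and 13.87 after H/R. Neither pair overlapped, at 0.68 ± 0.15 with B12 (adjusted p = 0.00354) and 0.41 ± 0.15 without (adjusted p = 0.0688). Eif3e read 12.59, 12.75, 12.81 and 12.85 in control+B12 and 13.40, 13.50, 13.10 and 13.24 in H/R+B12, a difference of 0.56 ± 0.16 (adjusted p = 0.0217). Without B12 it read 13.36, 12.86, 12.96 and 12.77 in control and 13.19, 13.60, 13.38 and 13.01 after H/R, which overlap, at 0.31 ± 0.16 (adjusted p = 0.241). Eif3j2, a copy of the loosely bound j subunit gene whose signal may include its near-identical partner, read 9.75, 9.49, 9.54 and 9.63 in control+B12 and 10.28, 10.36, 9.84 and 10.15 in H/R+B12 and rose by 0.56 ± 0.15 (adjusted p = 0.015). The other pair, 9.93, 9.59, 9.69 and 9.71 in control and 9.97, 9.93, 10.14 and 10.44 after H/R, touched at 9.93, at 0.39 ± 0.15 (adjusted p = 0.0916). The Eif3e call was lost without H/R+B12 replicate 1 or 2 or control+B12 replicate 1 (highest adjusted p 0.069) and the Eif3j2 call without H/R+B12 replicate 2 (0.0527).

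Eif3l was the eIF3 gene that fell without B12, by 0.47 on the log2 scale (SE 0.14, adjusted p = 0.0293), with H/R arrays of 12.40 to 12.48 below control arrays of 12.77 to 13.02. Its control+B12 arrays, 12.23 to 12.81, reached lower than the control arrays but overlapped them, and with B12 the difference was -0.22 ± 0.14 (adjusted p = 0.333). The fall was not called in 7 of 23 settings, which were the centring and the leaving out of any H/R array or of control replicate 1 or 3 (highest adjusted p among the latter 0.0836). Eif3b, Eif3f, Eif3h, Eif3i, Eif3k and Eif3m lay between -0.24 and 0.33 in both comparisons, with overlapping arrays, and passed in neither. Thus 2 of 12 genes rose and 1 fell without B12, and 5 rose and 0 fell with it. Of all probe sets 17.6% and 18.7% passed, and of those above the negative controls 34.9% and 35.9%.

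In the eIF4 group the repressor gene rose more than the cap-binding protein gene. Eif4ebp1 encodes an eIF4E-binding protein and is a known target of the stress factor ATF4. Its signal was 11.77, 11.45, 11.77 and 11.53 in control and 13.32, 13.54, 13.65 and 13.32 after H/R. With B12 it was 11.21, 11.60, 11.90 and 11.53 in control+B12 and 13.60, 13.61, 13.40 and 13.64 in H/R+B12. The groups were far apart in both settings, with differences of 1.83 ± 0.15 (adjusted p = 6.29e-07), a 3.54-fold change, and 2.00 ± 0.15 (adjusted p = 2.18e-07), a 4-fold change. In contrast Eif4ebp2, the second binding protein, had arrays of 10.95 to 11.22 in control and 10.78 to 10.98 after H/R, which overlap, at -0.23 ± 0.15 (adjusted p = 0.394). With B12 it fell by 0.47 on the log2 scale (SE 0.15, adjusted p = 0.0389), a call lost in 9 of 23 settings, among them those without H/R+B12 replicate 1, 2 or 4 or control+B12 replicate 2, 3 or 4 (highest adjusted p 0.11). Its arrays overlapped through control+B12 replicate 1. The within-array ratio of Eif4ebp1 to Eif4ebp2 was higher after H/R by 2.05 without and 2.47 with B12.

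Eif4e, the cap-binding protein itself, read 12.88, 13.00, 13.08 and 13.13 in control+B12 and 13.51, 13.56, 13.55 and 13.62 in H/R+B12, without overlap, and rose by 0.53 ± 0.12 (adjusted p = 0.0049). Without B12 it read 13.39, 13.01, 13.09 and 13.34 in control and 13.38, 13.49, 13.46 and 13.54 after H/R, where the arrays just overlap, at 0.26 ± 0.12 (adjusted p = 0.184). The ratio of Eif4ebp1 to Eif4e was higher by 1.57 and 1.46, and by at least 1.03 between any H/R array and any control array. Eif4a1, the helicase that unwinds mRNA leaders, read 15.87, 15.49, 15.62 and 15.63 in control and 16.17, 16.24, 16.29 and 16.32 after H/R, and 15.48, 15.59, 15.75 and 15.64 in control+B12 and 16.12, 16.39, 16.22 and 16.17 in H/R+B12. It was higher in every H/R array, by 0.60 ± 0.12 (adjusted p = 0.0022) and 0.61 ± 0.12 (adjusted p = 0.00197).

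Among the remaining genes of this group, Eif4a3 was called with B12. Eif4a3, the helicase of the exon junction complex, was at 0.14 ± 0.14 (adjusted p = 0.577) and rose by 0.46 ± 0.14 with B12 (adjusted p = 0.0258), a call lost in 4 of 23 settings, among them those without H/R+B12 replicate 2 or 3 or control+B12 replicate 1 (highest adjusted p 0.0851). The helicase cofactor genes Eif4b (0.05 ± 0.12 and 0.15 ± 0.12) and Eif4h (-0.29 ± 0.12 and -0.28 ± 0.12) passed in neither, and neither did the scaffold relatives Eif4g2 (0.23 ± 0.12 and 0.27 ± 0.12) and Eif4g3 (-0.20 ± 0.21 and 0.19 ± 0.21). Eif4g2 arrays did not overlap in either setting. The cap-binding relatives Eif4e2 (0.47 ± 0.19 and 0.12 ± 0.19) and Eif4e3 (0.05 ± 0.27 and 0.64 ± 0.27) and the eIF4E transporter Eif4enif1 (0.25 ± 0.19 and 0.27 ± 0.19) also missed the threshold. In all, 2 of 14 genes rose and 0 fell without B12, and 4 rose and 1 fell with it. The shares called were 17.6% and 18.7% over all probe sets, and 34.9% and 35.9% among those above the negative controls.

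Eif6, which keeps the large ribosomal subunit from joining the small one and acts in its assembly, rose in both settings. It read 13.61, 13.27, 13.31 and 13.42 in control and 14.14, 13.97, 14.10 and 14.44 after H/R, and 13.32, 13.42, 13.50 and 13.39 in control+B12 and 14.19, 14.15, 14.17 and 14.18 in H/R+B12. No arrays overlapped, and the differences were 0.76 ± 0.13 (adjusted p = 0.000443) and 0.77 ± 0.13 (adjusted p = 0.000406). Eif5a, whose hypusine-bearing protein acts mainly in elongation, was lower in every H/R array in both settings, at -0.44 ± 0.14 (adjusted p = 0.0374) and -0.39 ± 0.14 (adjusted p = 0.066). Its call without B12 was lost in 9 of 23 settings, among them the centring and those without H/R replicate 1, 2 or 4 or control replicate 1, 2 or 3 (highest adjusted p of these 0.116). Eif5a2 (0.18 ± 0.17 and -0.10 ± 0.17) and the subunit-joining factor Eif5b (0.02 ± 0.13 and 0.11 ± 0.13) passed in neither.

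The H/R responses without and with B12, came from separate arrays. Their directions matched in 43 of 48 genes (89.6%, against 69% of all probe sets), and the log2 differences correlated at r = 0.92 (rho = 0.88) across the 48 genes. For all probe sets r was 0.75. Genes are not independent replicates, and many probe sets of the array are at background, so these values are descriptive. Both comparisons called 8 genes, 3 were called without B12 alone and 11 with B12 alone. Of all 22206 probe sets, 2943 were called in both, 976 without B12 alone and 1199 with B12 alone. Those totals include probe sets at background. A gene called in one comparison is not thereby shown to differ between them, and the interaction tests that.

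**Figure D3:**
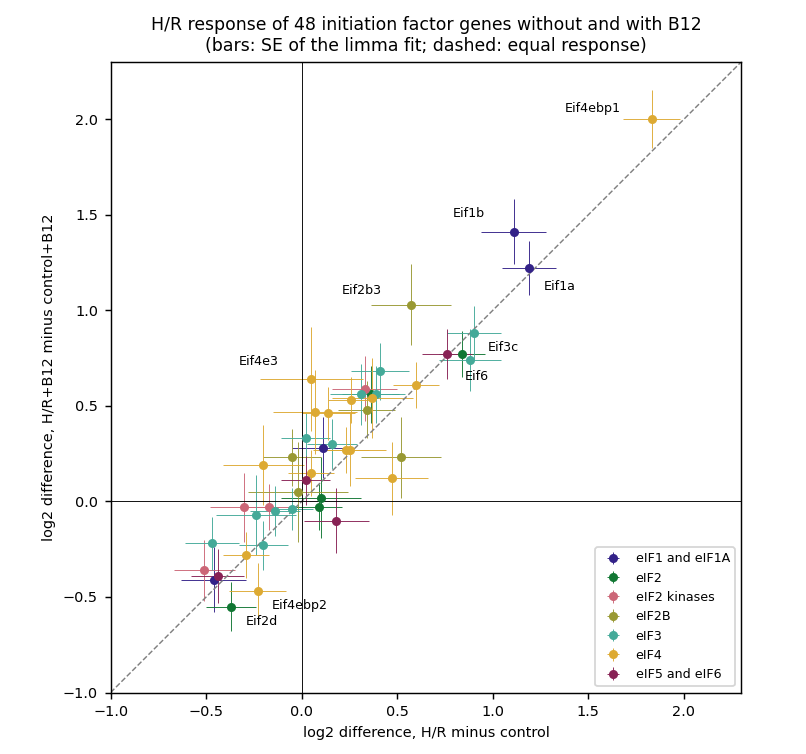
Each point is 1 of the 48 genes, with the log2 difference H/R minus control on the x axis and H/R+B12 minus control+B12 on the y axis, coloured by factor group, and bars give the SE of the limma fit. The points follow the dashed line of equal response (r = 0.92), and 37 of 48 lie above it.

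By limma, the interaction of H/R and B12 was called in 0 of 48 genes (0 at an unadjusted p under 0.05) and in 0% of all probe sets (1071 of 22206 at an unadjusted p under 0.05). The estimates ran from -0.34 (Eif4e2) to 0.59 (Eif4e3, whose signals were near background). Their median was 0.12 against 0.01 over all probe sets, and 37 of 48 were positive against 11282 of 22206. For Eif4ebp1 the interaction was 0.17 (95% interval -0.29 to 0.63), for Eif1a 0.03 (95% interval -0.40 to 0.45), for Eif2s2 -0.07 (95% interval -0.42 to 0.28) and for Eif6 0.01 (95% interval -0.37 to 0.39). Larger estimates with wide intervals were those of Eif2b3, 0.46 (95% interval -0.18 to 1.10), and Eif1b, 0.30 (95% interval -0.22 to 0.82). The intervals allow changes of the H/R response of about the size of many responses themselves, so equal responses are not shown.

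B12 itself was followed by no called change in any of the 48 genes by limma. In H/R+B12 against H/R 0 of 48 passed (0 at an unadjusted p under 0.05), with differences from -0.21 to 0.36. In control+B12 against control 0 of 48 passed and 2 had an unadjusted p under 0.05, Eif2b3 and Eif3l, with differences from -0.56 to 0.30. The same 2 comparisons called 0% of all probe sets (1010 and 1280 of 22206 at an unadjusted p under 0.05). In 0 of the 48 genes did the B12 arrays separate from those without it, against 2.87% of all probe sets in each comparison. The sign of the difference was negative in 32 of 48 genes in control cells, with a median of -0.05, and positive in 33 of 48 in H/R cells, with a median of 0.03. Of all 22206 probe sets, 11211 were negative in control cells and 11058 positive in H/R cells. The genes share the same arrays and are not independent, and these sign counts were not tested.

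Averaged over the 48 genes and set relative to the mean of the control arrays, single arrays lay at -0.08 to 0.09 in control, -0.14 to -0.01 in control+B12, 0.14 to 0.27 in H/R and 0.22 to 0.25 in H/R+B12. H/R arrays were thus above both control groups, and control+B12 arrays reached lowest. The eIF1 and eIF1A group had the widest separation, at -0.14 to 0.11 in control and 0.35 to 0.62 after H/R. The eIF4 group lay at -0.06 to 0.08 and 0.19 to 0.37, and eIF3 at -0.09 to 0.12 and 0.09 to 0.25, which overlap. The eIF2 kinases had a lower mean after H/R without B12, at -0.16 to 0.12 in control and -0.24 to -0.11 after H/R, also with overlap. With B12 their mean was not lower, at -0.07 in control+B12 and -0.03 in H/R+B12. These means are descriptions and were not tested.

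Other genes of the pathway were counted from lists, to be read beside the share of all probe sets that passed. That share was 17.6% without B12 and 18.7% with it. Among probe sets above the negative controls it was 34.9% and 35.9%. The first list held 12 genes of the eIF2 phosphatase and of the stress response around eIF2 phosphorylation. Of these 8 rose and 1 fell without B12 (median 1.06), and 7 rose and 1 fell with it (median 0.99). Ppp1r15b, the constitutive subunit that directs the phosphatase to eIF2, rose by 1.47 ± 0.17 (adjusted p = 1.22e-05) and 1.42 ± 0.17 with B12. Its inducible relative Ppp1r15a was at -0.19 ± 0.25 and 0.21 ± 0.25, with group means of 4.80 to 5.19 that lay below the negative controls. Atf4 rose by 1.61 ± 0.15 and 1.70 ± 0.15, and Atf3 by 3.64 ± 0.20 and 4.34 ± 0.20. Trib3 (2.11 ± 0.26 and 1.88 ± 0.26) rose from a control mean of 5.92, near background, which leaves the size of that rise unsure. The kinase inhibitor Dnajc3, named after its values were seen, was the gene that fell, at -1.01 ± 0.17 and -0.97 ± 0.17.

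Of 16 measured genes of the mTORC1 control of eIF4E, 4 rose and 3 fell without B12 (median 0.05), and 5 rose and 3 fell with it (median 0.09). In these comparisons 17.6% and 18.7% of all probe sets passed, and 34.9% and 35.9% of those above the negative controls. Those that rose include the mTORC1 inhibitor genes Ddit4, at 1.72 ± 0.19 (adjusted p = 1.23e-05) and 1.64 ± 0.19, and Tsc1, at 1.11 ± 0.14 (adjusted p = 4.27e-05) and 1.06 ± 0.14. Sesn3, another stress gene of this control, rose by 0.71 ± 0.15 and 0.47 ± 0.15. Those that fell include Pdcd4, an inhibitor of the eIF4A helicase named after its values were seen, at -0.79 ± 0.17 (adjusted p = 0.00323) and -0.95 ± 0.17, and the stress gene Sesn1, at -1.01 ± 0.17 (adjusted p = 0.000455) and -0.96 ± 0.17. Mtor (-0.22 ± 0.16 and 0.08 ± 0.16) and Rptor (-0.24 ± 0.15 and -0.29 ± 0.15) passed in neither.

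Of 7 measured partners of the eIF2 kinases, 1 rose (Prkrip1, an inhibitor of PKR, 0.59 ± 0.17 and 0.56 ± 0.17) and 2 fell in each setting, the PKR activator Prkra (-0.66 ± 0.16 and -0.51 ± 0.16) and Oma1, the mitochondrial protease upstream of the heme-regulated kinase (-1.25 ± 0.28 and -0.95 ± 0.28). Of 17 other initiation proteins 3 rose and 0 fell without B12, and 3 rose and 1 fell with it. For both lists, the share of all probe sets called was 17.6% without B12 and 18.7% with it. Among probe sets above the negative controls it was 34.9% and 35.9%. Denr, which with Mcts1 aids reinitiation, rose by 0.65 ± 0.15 and 0.80 ± 0.15, while Mcts1 was at -0.73 ± 0.27 (adjusted p = 0.0726) and -0.86 ± 0.27 (adjusted p = 0.0331). The RNA helicase Ddx3x rose by 0.34 ± 0.11 and 0.38 ± 0.11, and Ythdf1, a reader of methylated RNA, by 0.54 ± 0.15 and 0.85 ± 0.15.

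**Figure D4:**
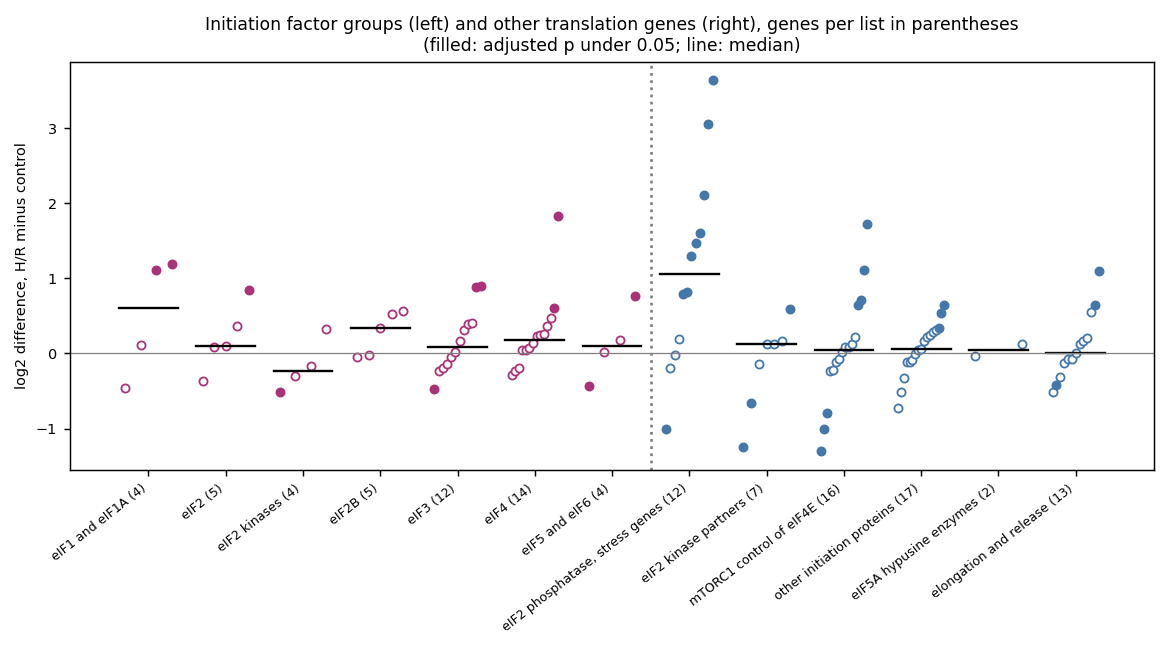
Log2 difference H/R minus control (y axis) of the genes in the 7 initiation factor groups, in purple, and in 6 lists of other translation genes, in blue, with the number of genes in parentheses. Filled points passed an adjusted p of 0.05 and lines are medians, which lie between -0.23 and 0.61 in the factor groups and at 1.06 in the list of the eIF2 phosphatase and stress genes.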

How the data were processed

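Gene expression was measured on 16 arrays, 4 per group. The authors deposited log2 signals per probe set, made by RMA in Affymetrix Expression Console and compared in Transcriptome Analysis Console, per the submitters' processing notes. Versions of both programs were not given in the sources used here. In total, 6640 control features were left out, and 22206 probe sets were tested without further normalization. Of these 19572 carried 1 gene symbol, 2634 none and 0 several. All 48 symbols were in the RefSeq table of GRCm38.p6, and 37 had a promoter.

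A linear model with 1 mean per group was fitted to all 16 arrays with limma 3.58.1 under R 4.3.3, with empirical Bayes variances (total degrees of freedom 16.23), tested on simulated data. P-values are two-sided and adjusted by Benjamini and Hochberg over all 22206 probe sets within each comparison. Python 3.11.15 with matplotlib 3.10.9 drew the plots. The members and lists were chosen with earlier results of these data known. Genes were named by membership, and a value per array was given for those past the threshold with a log2 difference of at least 0.5 in either H/R comparison. In the other lists the genes past the threshold with the smallest p, up to 4, were named, beside genes without a call that help to read them. Dnajc3 and Pdcd4 were named outside this rule, after their values were seen.

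The alternatives tried were centring on array medians, quantile normalization, array weights, robust variances with an intensity trend, the replicate number as a block, separate fits of each pair of groups, dropping the 25% of probe sets with the lowest signal, a 2-fold change at an unadjusted p under 0.05, and the omission of each array in turn. Precision is limited by having 4 arrays in a group.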

Additional observations from a re-analysis of the deposited data

Results flagged for a closer look

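In 9 of 192 sets of 4 arrays (48 genes in 4 groups), 1 array lay far from the other 3 by Dixon's test, where chance gives about 1 in 20. In control, Eif4a3 replicate 2 was low (11.73, the others 12.16 to 12.18), and replicate 4 was low in Eif4a3l1 (5.59, the others 5.97 to 6.03) and in Eif4b (15.12, the others 15.28 to 15.29). In control+B12, Eif3d replicate 4 was high (13.52, the others 12.91 to 13.01) and Eif4ebp2 replicate 1 was low (10.90, the others 11.52 to 11.58). In H/R+B12, Eif3a replicate 1 was high (13.67, the others 13.51 to 13.53), Eif4ebp1 replicate 3 was low (13.40, the others 13.60 to 13.64), and replicate 4 was low in Eif3c (15.44, the others 15.55 to 15.57) and in Eif5a (15.43, the others 15.74). In Eif3a, Eif3c and Eif4ebp1 the H/R+B12 arrays lay so close together that these gaps are small beside the H/R difference, and their calls held in all 23 alternative settings. The fall of Eif4ebp2 with B12 was not called when control+B12 replicate 2, 3 or 4 was left out, nor without H/R+B12 replicate 1, 2 or 4 (adjusted p 0.053 to 0.11 in limma).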

How the results depend on the processing

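The 11 genes called in H/R against control became 18 with an intensity trend and robust variances and 3 with an unadjusted p under 0.05 and a 2-fold change. The 19 called with B12 in both arms became 4 under the latter rule. Leaving out 1 array gave 8 to 12 genes without B12 and 15 to 20 with it. The replicate number as a block gave 9 and 18 genes. Same-numbered arrays of different groups did not deviate together (median r of the deviations 0.005, from -0.072 to 0.079 over 24 pairs), so the numbers were not taken as a pairing. The 8 genes that rose in both comparisons, Eif1a, Eif1b, Eif2s2, Eif3a, Eif3c, Eif4a1, Eif4ebp1 and Eif6, were called in all 23 settings of either other than the 2-fold rule. The 3 falls without B12 (Eif2ak2, Eif3l and Eif5a) were each lost in 7 to 9 of 23. Leaving out 1 array also added calls: without B12 those of Eif2ak3, Eif2b3, Eif2b4 and Eif3d, and with B12 those of Eif4a3l1, Eif4e1b, Eif4e3 and Eif5a. No value that was called in either fit changed direction. The interaction and both B12 comparisons called 0 of the 48 genes in each setting run. No gene had several probe sets, so the choice of probe set could not be varied.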

Other observations

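Of 13 measured elongation and release genes 2 rose and 1 fell in each H/R comparison, where 17.6% of all probe sets passed without and 18.7% with B12. Among probe sets above the negative controls 34.9% and 35.9% passed. The list had medians of 0.00088 without and 0.03 with B12. Etf1, the release factor that reads stop codons, rose by 1.10 ± 0.13 (SE, n = 4 against 4, adjusted p = 1.44e-05 in limma) and 1.19 ± 0.13 with B12, from 12.43, 12.24, 12.32 and 12.19 in control to 13.36, 13.24, 13.67 and 13.32 after H/R. Eef1e1, a part of the multi-synthetase complex, rose by 0.64 ± 0.14 and 1.00 ± 0.14. The elongation factor gene Eef1d fell by 0.42 and 0.39 on the log2 scale. Eef1a1 (0.00088 ± 0.12 and 0.03 ± 0.12) and Eef2 (-0.13 ± 0.11 and -0.10 ± 0.11) passed in neither, and neither did Dhps (-0.04 ± 0.19 and 0.12 ± 0.19) or Dohh (0.12 ± 0.17 and 0.08 ± 0.17), the enzymes that make hypusine on Eif5a protein.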
